A study of Mus musculus with 8 samples.

Results

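The 10 genes described here encode calcium-binding and cytoskeletal proteins of activated, motile or wounded cells. They are 6 S100 genes (*S100a4*, *S100a6*, *S100a8*, *S100a9*, *S100a10* and *S100a11*), 3 annexins (*Anxa1*, *Anxa2* and *Anxa5*) and the intermediate filament gene *Vim*. They were chosen by name, as the rows of the deposited count matrix whose Ensembl identifier maps to these mouse symbols, and all 10 were found among 55573 listed genes. All 10 also passed the filter on low counts and were tested with 20153 genes in all. The study sorted microglia, the resident macrophages of the brain, from 4 mutant and 4 control mice at postnatal day 60 and sequenced their RNA, 1 library per mouse. The mutants were *Smad2/3* fl/fl;*Cx3cr1* Cre mice, in which floxed *Smad2* and *Smad3*, the signal transducers of canonical TGFβ signaling, are deleted by a Cre recombinase made from the *Cx3cr1* locus. The labels call the controls wild-type littermates, whereas the Methods state that controls in general carried Cre and a floxed allele, and that all mice were backcrossed to C57BL6/J. This Cre is active in microglia and in related macrophages alike. For this line the study describes isolation by a Percoll gradient and sorting by the surface proteins CD45 and CD11b. Neutrophils, monocytes and border macrophages carry these proteins as well. The study names another deposit for its *Smad2/3* data, so it is not certain that these libraries were isolated in this way. The Methods also mention gating on TdTomato, a fluorescent reporter, for this isolation, and it is not clear whether that gate was applied to these libraries.

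S100 proteins are small calcium sensors that mostly work as pairs and, once bound to calcium, dock onto target proteins. S100A8 and S100A9 form calprotectin, the main cytosolic protein of neutrophils, while S100A10 does not sense calcium and instead joins annexin A2 in a complex at the plasma membrane that gathers plasminogen and its activators. S100A11 pairs with annexin A1, S100A4 binds the motor protein myosin IIA, and S100A6 binds the calcyclin-binding protein. Annexins attach to phosphatidylserine and other acidic lipids when calcium rises, and they take part in membrane repair, vesicle traffic and, for annexin A1, the resolution of inflammation through formyl peptide receptors. Vimentin forms the intermediate filaments of mesenchymal cells and macrophages. In the healthy brain it is mostly found in glial progenitors, vessels and some astrocytes.

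The promoters of *Anxa5* and *Vim*, the 2 genes with the largest differences, and of *S100a8* and *S100a9*, which moved together from mouse to mouse, are printed to show what precedes each start. They are the 250 bases before the RefSeq transcript start in GRCm38.p6, 5′ to 3′ on the gene's strand, and capitals mark matches to any of 6 motifs of at least 6 letters. *Anxa5* lies at chr3:36475888-36476137 on the minus strand, *Vim* at chr2:13574061-13574310 on the plus strand, *S100a8* at chr3:90668821-90669070 on the plus strand and *S100a9* at chr3:90695722-90695971 on the minus strand.
Anxa5: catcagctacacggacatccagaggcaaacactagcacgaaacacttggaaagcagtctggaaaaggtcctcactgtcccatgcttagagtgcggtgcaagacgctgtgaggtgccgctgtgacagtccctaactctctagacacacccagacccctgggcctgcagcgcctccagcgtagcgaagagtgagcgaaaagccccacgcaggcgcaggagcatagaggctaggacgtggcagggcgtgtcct
Vim: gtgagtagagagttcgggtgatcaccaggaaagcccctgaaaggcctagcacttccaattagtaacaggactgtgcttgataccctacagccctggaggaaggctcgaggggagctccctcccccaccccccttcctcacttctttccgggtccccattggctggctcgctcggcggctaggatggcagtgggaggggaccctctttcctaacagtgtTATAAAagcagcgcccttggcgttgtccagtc
S100a8: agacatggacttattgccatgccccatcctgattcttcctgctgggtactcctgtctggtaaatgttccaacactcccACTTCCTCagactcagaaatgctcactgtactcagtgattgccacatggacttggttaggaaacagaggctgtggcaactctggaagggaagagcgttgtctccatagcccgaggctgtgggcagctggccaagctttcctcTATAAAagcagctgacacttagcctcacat
S100a9: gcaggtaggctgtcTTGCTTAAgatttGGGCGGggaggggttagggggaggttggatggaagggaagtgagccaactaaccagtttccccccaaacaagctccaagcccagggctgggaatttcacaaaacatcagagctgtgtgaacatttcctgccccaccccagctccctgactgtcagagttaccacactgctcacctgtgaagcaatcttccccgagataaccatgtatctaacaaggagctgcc

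The TATA box TATAAA stood 27 to 32 bases before the start of *Vim* and 25 to 30 bases before that of *S100a8*. It was present in 5 of the 9 members with a promoter in the table, against 12.4% of 32851 mouse promoters searched in the same way on both strands. The purine-rich PU.1 site GAGGAAGT, a motif of myeloid genes, occurred on the opposite strand of *S100a8* and in no other member (2.44% of promoters). The C/EBP site TTGCNNAA, a motif of granulocyte genes, was found in *S100a9* and *Anxa1* (9.56%). The GC box GGGCGG was found in *S100a9*, *S100a11* and *Anxa2* (32.7%), and the AP-1 site TGANTCA in *S100a11* and *Anxa2* (6.75%). The palindromic SMAD site GTCTAGAC was in none of the 9 windows and in 0.167% of all promoters. The short SMAD element CAGAC, not set in capitals because chance gives it often, was in *Anxa5*, *S100a4*, *S100a6* and *S100a8*, and in 42.2% of all promoters. None of these motifs contains another. A match is a description of the letters and not evidence of binding, and the window holds no enhancers.

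The 8 libraries held 35639502 to 41946479 counts, and the 10 genes together took between 0.0627% and 0.195% of them. *Smad3* fell in mutants (48.6 ± 7.12 against 19.3 ± 11.01 CPM, counts per 1000000 counts of the library, mean ± SD, n = 4, edgeR adjusted p = 0.0429), a call that was lost when any mouse but mutant 3 was left out. *Smad2* stood at 74.5 ± 13.8 and 58.7 ± 14.9 CPM (adjusted p = 0.34), and since the counts cover whole genes, exons that Cre leaves in place are included. All 4 controls expressed *Xist* (137 ± 38.0 CPM), whose level in mutants was 0.181 ± 0.254 CPM. The Y-linked *Ddx3y* averaged 0.121 ± 0.0965 CPM in controls against 39.8 ± 21.4 CPM for the mutants. Genotype and sex therefore cannot be told apart in any comparison below. Of 8 microglial marker genes 7 fell, and the summed level of the 8 was 29076 to 44233 CPM in controls and 5309 to 7477 CPM in mutants. *Csf1r*, the most counted, was at a log2 fold change of -1.32 ± 0.25 (SE). *Cx3cr1* (-2.33 ± 0.18), 1 of the 7, is also the locus from which the Cre is made, and the part of that allele in its fall was not tested. Of 7 border macrophage markers 5 rose, with sums of 52.8 to 99.0 CPM in controls and 1630.25 to 2534 CPM in mutants, and with *Pf4*, the most counted, at 6.48 ± 0.34. Markers of choroid plexus, the fluid-secreting epithelium of the ventricles, were abundant in every library: the sum of 5 genes, nearly all of it *Ttr*, was 7256 to 24990.1 CPM in controls and 25371 to 42084 CPM in mutants. In sorted bulk samples a lower level can reflect fewer cells of a type or less RNA per cell, and the counts cannot tell these apart.

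*Anxa5*, *Vim* and *S100a10* rose in the mutants, and no member fell. Called genes had an adjusted p below 0.05 in edgeR's quasi-likelihood test, with Benjamini-Hochberg adjustment over all tested genes. Thus 3 of 10 members were called, all higher, where 12.3% of all tested genes were called in either direction and 4.36% were called higher. The members were chosen with earlier results of these data known, so these shares are a description and not a test. The same 3 genes were those in which every mutant exceeded every control, a pattern found in 9.04% of all tested genes, while in 22.1% the groups did not overlap in either direction. The median log2 fold change of the 10 members was 0.80, against 0.01 for all tested genes, with 6 members above 0 and 4 below. The 6 S100 genes had 1 called member and a median of 0.80, and the 3 annexins 1 called member and a median of -0.09. DESeq2, run as an alternative, called 5 members, all higher, where it called 20.4% of the genes it tested in either direction and 8.97% higher.

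*Anxa5* (annexin A5, on chromosome 3 from 36448923 to 36475894, minus strand) encodes the phosphatidylserine-binding protein whose labelled form is used to stain dying cells. Its CPM was 123, 110, 58.2 and 76.6 in controls 1 to 4 and 347, 302, 286 and 267 in mutants 1 to 4. The lowest mutant was at more than 2 times the highest control. The means were 92.1 ± 29.9 and 300.4 ± 33.8 (SD, n = 4), 3.26-fold apart, and the log2 fold change was 1.71 ± 0.24 (SE, edgeR adjusted p = 0.00227). The rise was called with each mouse left out in turn, at log2 fold changes from 1.54 to 1.88. It ranked at the 95.9th percentile of log2 fold changes among all tested genes.

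*Vim* (vimentin, on chromosome 2 from 13573927 to 13582826, plus strand) was at 73.6, 90.2, 53.6 and 51.2 CPM in the controls and at 181, 167, 167 and 142 CPM in the mutants. Again no control reached the lowest mutant, and the mutants were closely spaced, with a coefficient of variation of 9.93% against 27.3% in controls. The mean rose from 67.2 ± 18.3 to 164.1 ± 16.3 CPM, 2.44-fold, with a log2 fold change of 1.29 ± 0.21 (adjusted p = 0.00408 by edgeR). This call, too, held in all 8 fits that left out a mouse, between 1.20 and 1.46. Among mutants, mutant 1 was highest and mutant 4 lowest for both genes. The border macrophage marker sum was lowest in mutant 1 (1630.25 CPM) and highest in mutant 4 (2534 CPM), and its part in the rise of *Vim* and *Anxa5* was not tested.

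**Figure D1:**
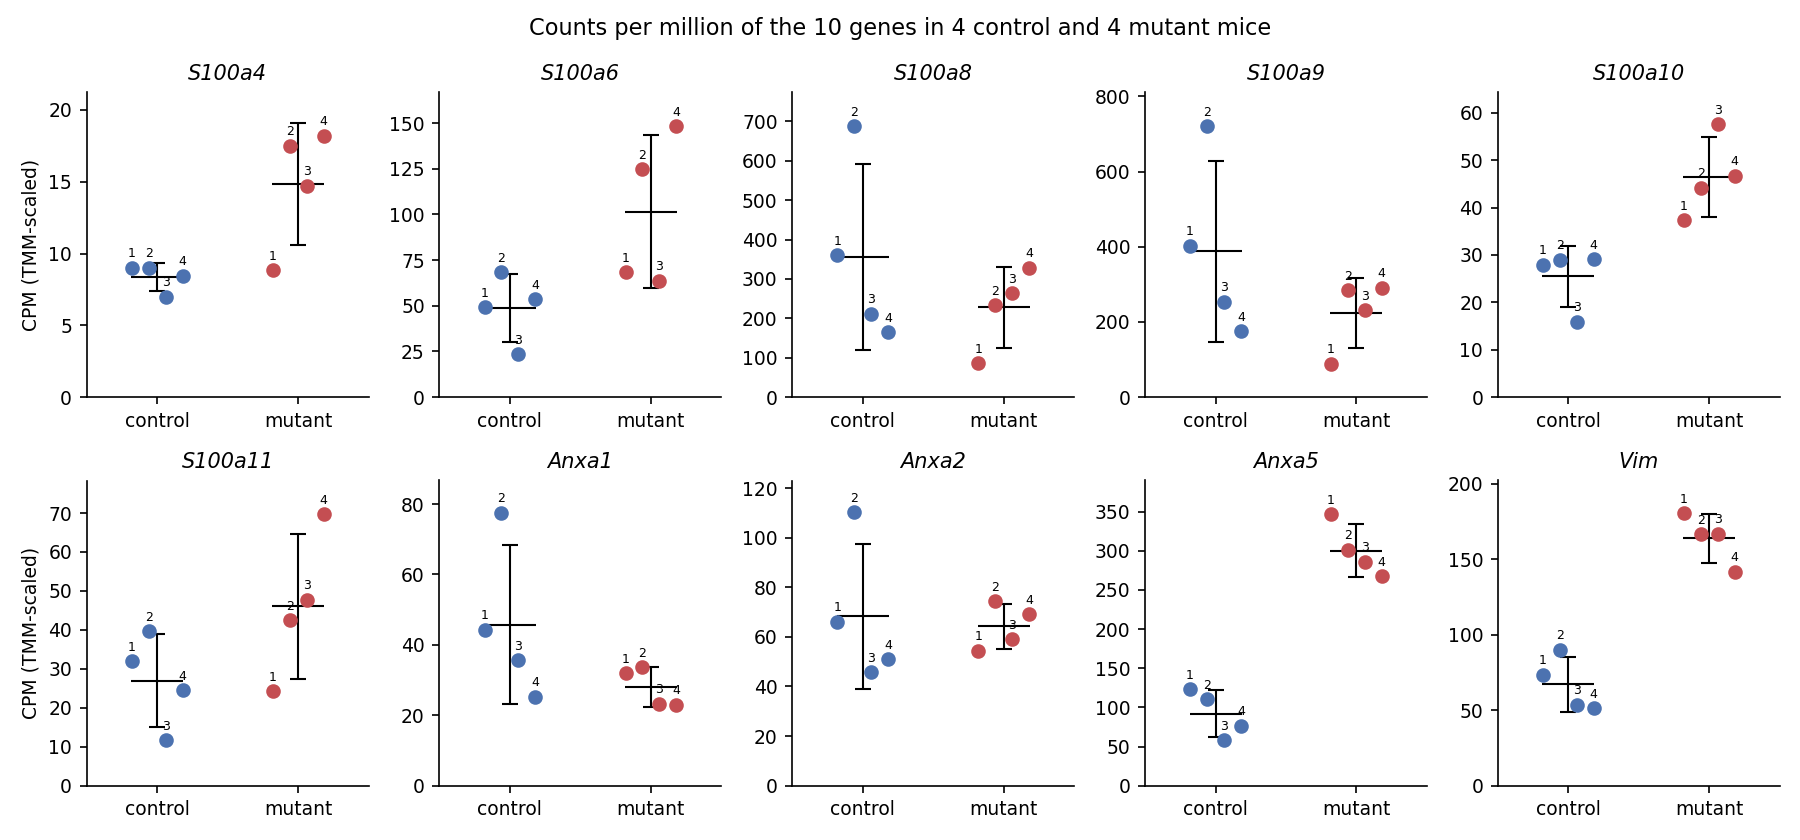
Each panel plots 1 gene in CPM scaled by TMM factors, on a linear axis from 0, with a numbered point per mouse and the mean ± SD (n = 4) in black. Only in *S100a10*, *Anxa5* and *Vim* do all 4 mutants lie above all 4 controls, and control 2 is the highest mouse for *S100a8*, *S100a9*, *Anxa1* and *Anxa2*.

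*Anxa1* and *Anxa2* showed no such rise. *Anxa1* (chromosome 19, 20373428 to 20390944, minus strand) encodes the anti-inflammatory annexin of neutrophils and macrophages. It was at 44.3, 77.5, 35.7 and 25.3 CPM in controls and at 31.9, 33.7, 23.3 and 23.1 CPM in mutants. The groups overlapped, 2 mutants lying below the lowest control, and the log2 fold change was -0.71 ± 0.33 (edgeR adjusted p = 0.195). Without control 2, the highest mouse, it was -0.32 ± 0.26 (adjusted p = 0.503). *Anxa2* (chromosome 9, 69453620 to 69491795, plus strand), the membrane partner of S100A10, was at 66.1, 110, 45.8 and 51.0 CPM in controls and at 54.4, 74.4, 59.0 and 69.2 CPM in mutants. Every mutant lay within the range of the controls, at a log2 fold change of -0.09 ± 0.28 (adjusted p = 0.875), which turned positive (0.24 ± 0.20, adjusted p = 0.523) without control 2. It was 0.016 under scaling by library totals, which raised the median of all genes by 0.119.

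*S100a10* (also p11, chromosome 3, 93555080 to 93564643, plus strand) was at 28.0, 29.0, 15.9 and 29.1 CPM in controls and at 37.4, 44.2, 57.5 and 46.7 CPM in mutants. All mutants exceeded all controls, of which control 3 stood apart at the low end. The mean rose 1.82-fold, from 25.5 ± 6.42 to 46.5 ± 8.36 CPM, and the log2 fold change was 0.87 ± 0.23 (edgeR adjusted p = 0.0417). The call was lost when any control, or mutant 2, 3 or 4, was left out, with adjusted p-values up to 0.0939 and log2 fold changes from 0.70 to 0.98. It held without mutant 1 (edgeR adjusted p = 0.0402). It was also lost with no filter on low counts (adjusted p = 0.0610). Per kilobase of exon, the level of *S100a10* relative to that of *Anxa2* was 1.30, 0.807, 1.07 and 1.76 in controls and 2.12, 1.83, 3.00 and 2.08 in mutants. The 2 subunits' transcripts thus stood in a higher ratio in every mutant than in any control. The ratio was chosen after its values were seen and was not tested.

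*S100a4*, *S100a6* and *S100a11* had higher means in mutants without passing the test. *S100a4* (chromosome 3, 90603771 to 90606045, plus strand), a gene of motile and mesenchymal cells, was at 9.01, 9.02, 6.99 and 8.46 CPM in controls and at 8.85, 17.5, 14.7 and 18.2 CPM in mutants. Mutant 1 lay among the controls and the other 3 mutants above them. The log2 fold change was 0.82 ± 0.26 (edgeR adjusted p = 0.0762), and without mutant 1 it was 1.005 and called (adjusted p = 0.0223). *S100a6* (calcyclin, chromosome 3, 90612882 to 90624181, plus strand) was at 49.3, 68.3, 23.5 and 53.5 CPM in controls and at 68.4, 125, 63.9 and 148 CPM in mutants. Control 2 lay above mutant 3 and level with mutant 1, and the log2 fold change was 1.06 ± 0.38 (adjusted p = 0.10). DESeq2 called both *S100a4* (adjusted p = 0.0165) and *S100a6* (adjusted p = 0.0373). *S100a11* (chromosome 3, 93520488 to 93526287, plus strand) was at 32.0, 39.7, 11.7 and 24.6 CPM in controls and at 24.2, 42.5, 47.8 and 69.7 CPM in mutants, a log2 fold change of 0.77 ± 0.40 (adjusted p = 0.249). Mutant 1 lay below 3 of the controls, and the log2 fold change was 0.50 without mutant 4 and 0.52 without control 3.

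Counts of 2 of these genes may be shared with other annotated genes. Of the 50-base words in *S100a11* transcripts, 41.1% also occur in 1 or more of 3 pseudogenes, *Gm12854*, *Gm7665* and *Gm29240*, which together with *S100a11* had 48.5 ± 21.1 CPM in controls and 82.0 ± 32.6 CPM in mutants. Of the words of *S100a4*, 47.4% also occur in the overlapping gene *Gm42674*, which had 0 counts in all libraries. Of the 584 exon bases of *S100a4*, 302 are also exon bases of *Gm42674* on the same strand. Whether reads from those bases were counted for *S100a4* or left out is not known.

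*S100a8* and *S100a9* (chromosome 3, 90668978 to 90670035 on the plus strand and 90692632 to 90695721 on the minus strand), the calprotectin genes, were not called, and relative to their means they had the widest spread of the members in both groups. *S100a8* was at 360, 687, 212 and 164 CPM in controls and at 86.2, 233, 264 and 328 CPM in mutants. *S100a9* was at 403, 720, 254 and 175 CPM in controls and at 89.1, 284, 231 and 292 CPM in mutants. Control 2 was highest and mutant 1 lowest for both. The log2 fold changes were -0.64 ± 0.51 (edgeR adjusted p = 0.454) and -0.79 ± 0.48 (adjusted p = 0.323), and without control 2 they were -0.11 and -0.31. The highest control had 4.18 times the *S100a8* CPM of the lowest, whereas within a library the level of *S100a8* per kilobase of exon was 0.617 to 0.860 times that of *S100a9*. Over the 8 mice the 2 genes were each other's nearest gene among all tested, with a root mean square distance of 0.165 between their centred log2 CPM profiles, where the median distance to a tested gene was 1.01.

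Markers of neutrophils, the blood granulocytes that hold most calprotectin, were present in every library. All 10 genes of the list were tested and 9 had a count in every library. Their summed CPM was 772, 1386, 531 and 238 in controls and 163, 286, 438 and 240 in mutants, so that control 2 was highest and mutant 1 lowest here as well. *Ngp*, a granule protein gene and the most counted of them, was at 372, 588, 216 and 107 CPM in controls and at 31.0, 131, 88.1 and 78.3 CPM in mutants (log2 fold change -1.97 ± 0.56, edgeR adjusted p = 0.0512). Of the 10 genes 2 were called lower and none higher, *Camp* at -1.91 ± 0.47 and *Ltf* at -2.45 ± 0.63. A fit chosen after seeing the data took the mean log2 level of these markers as a covariate. This mean was highest in control 2 (6.12), as the sum was, but lowest in mutant 4 (3.15) and not in mutant 1 (3.50). It therefore followed the sum only in part. It was 3.41 to 6.12 in controls and 3.15 to 4.67 in mutants, so this level and the genotype could be separated only in part. With this covariate the log2 fold change of *S100a8* was 0.11 ± 0.56, that of *S100a9* -0.11 ± 0.56 and that of *Anxa1* -0.18 ± 0.35. *Anxa5* (1.83 ± 0.30, edgeR adjusted p = 0.0105) and *Vim* (1.55 ± 0.21, adjusted p = 0.00477) remained called, and *S100a10* lost its call (0.93 ± 0.28, edgeR adjusted p = 0.0973). *S100a8* per kilobase was 1.70 to 2.70 times *Ngp* in controls and 3.15 to 7.38 times *Ngp* in mutants. The other neutrophil genes that were not called had log2 fold changes closer to 0 than that of *Ngp*. They were *Ly6g* at -0.99 ± 0.66, *Mmp9* at -0.70 ± 0.63, *Cxcr2* at -0.63 ± 0.61 and *Mmp8* at -0.60 ± 0.58. *Mpo* was at -0.42 ± 1.74, *Retnlg* at -0.29 ± 0.56 and *Elane*, the 1 gene of the list above 0, at 0.57 ± 1.1. The part of neutrophil RNA in the levels of *S100a8* and *S100a9* was not tested further. Of 9 monocyte markers none was called by edgeR (2 at an unadjusted p under 0.05, and 2 by DESeq2). Their summed CPM was 404, 580, 275 and 318 in controls and 210, 338, 389 and 376 in mutants. Control 2 was thus highest and mutant 1 lowest for this sum too. The part of monocyte RNA in the levels of *S100a8* and *S100a9* was not tested. *Ly6c2*, the most counted monocyte marker, was at -0.01 ± 0.35.

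**Figure D2:**
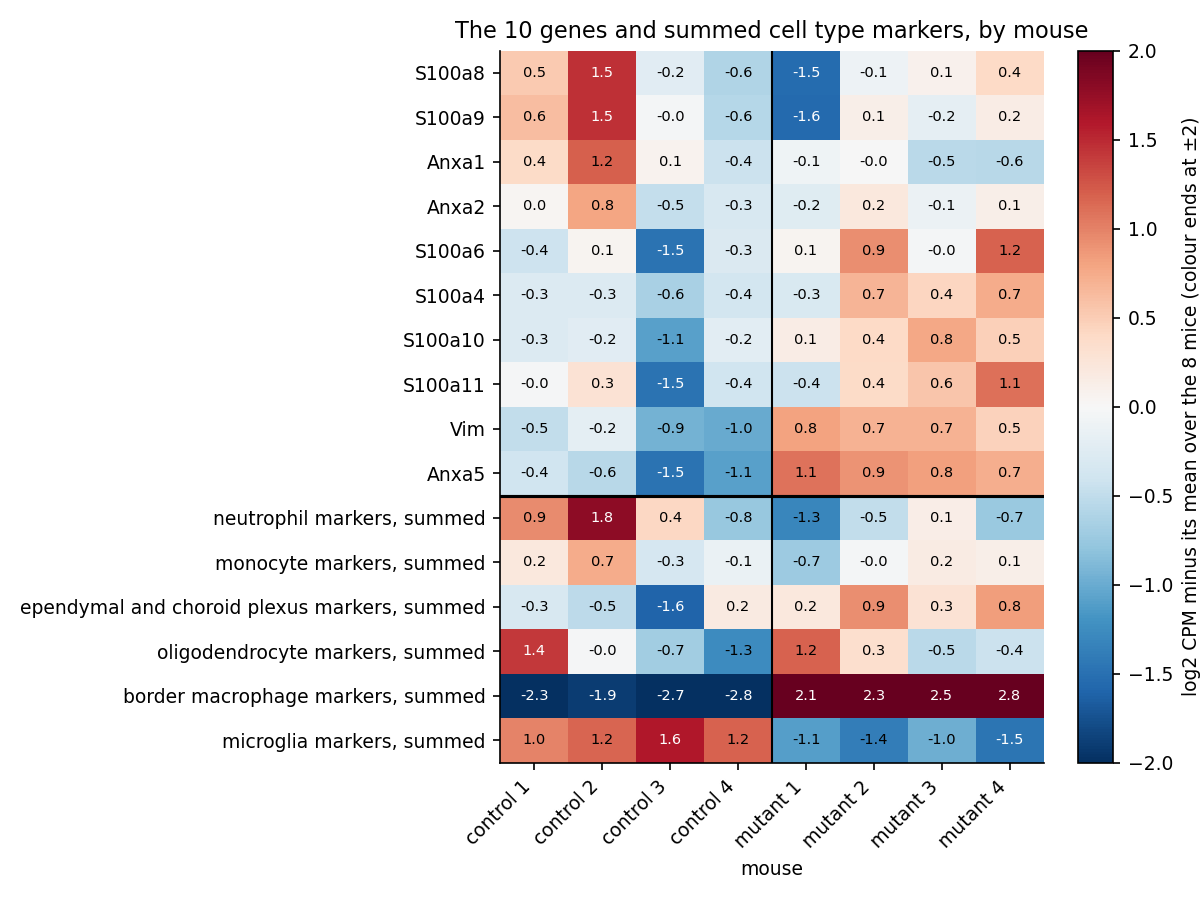
Rows are the 10 genes (above the line) and summed marker lists (below it), columns are the 8 mice, and each cell gives log2 CPM minus the row's mean over the mice, with colour saturated at ±2. *S100a8* and *S100a9* share their extremes, control 2 and mutant 1, with both the neutrophil and the monocyte sum. Control 3 is lowest for *S100a4*, *S100a6*, *S100a10*, *S100a11* and the choroid plexus sum. *Vim*, *Anxa5* and *S100a10* split by genotype, as the border macrophage and choroid plexus sums do and, in the opposite direction, the microglia sum.

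The choroid plexus sum and several S100 genes shared their low mouse. Control 3 had the lowest sum (7256 CPM, against 15247 to 24990.1 CPM in the other controls) and the lowest *S100a4*, *S100a6*, *S100a10* and *S100a11* of all 8 mice. It stood apart in more than this list. It had the highest microglial marker sum (44233 CPM, against 29076 to 33096 CPM in the other controls) and the lowest TMM factor (0.874). It was also the lowest mouse for genes such as *S100a1* (56.1 CPM) and *Bsg* (871 CPM). Mutants 2 and 4 had the highest choroid plexus sums and the highest *S100a4* and *S100a6*. *Ttr*, the transthyretin gene and the most counted of the list, had a log2 fold change of 1.05 ± 0.36 (edgeR adjusted p = 0.0903), and none of the 4 tested genes of the list was called by edgeR (3 at an unadjusted p under 0.05, and 2 by DESeq2). With the choroid plexus marker level as a covariate, also chosen after seeing the data, log2 fold changes were 0.55 ± 0.36 for *S100a4*, 0.22 ± 0.38 for *S100a6*, 0.46 ± 0.25 for *S100a10* and 0.01 ± 0.48 for *S100a11*. In that fit *Anxa5* was at 1.34 ± 0.29 (adjusted p = 0.053) and *Vim* at 1.15 ± 0.29 (adjusted p = 0.0904), so no member was called, and the calls over all genes fell from 2485 to 704. Every mutant had a higher choroid plexus sum than every control, so this level and the genotype could be separated only in part.

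**Figure D3:**
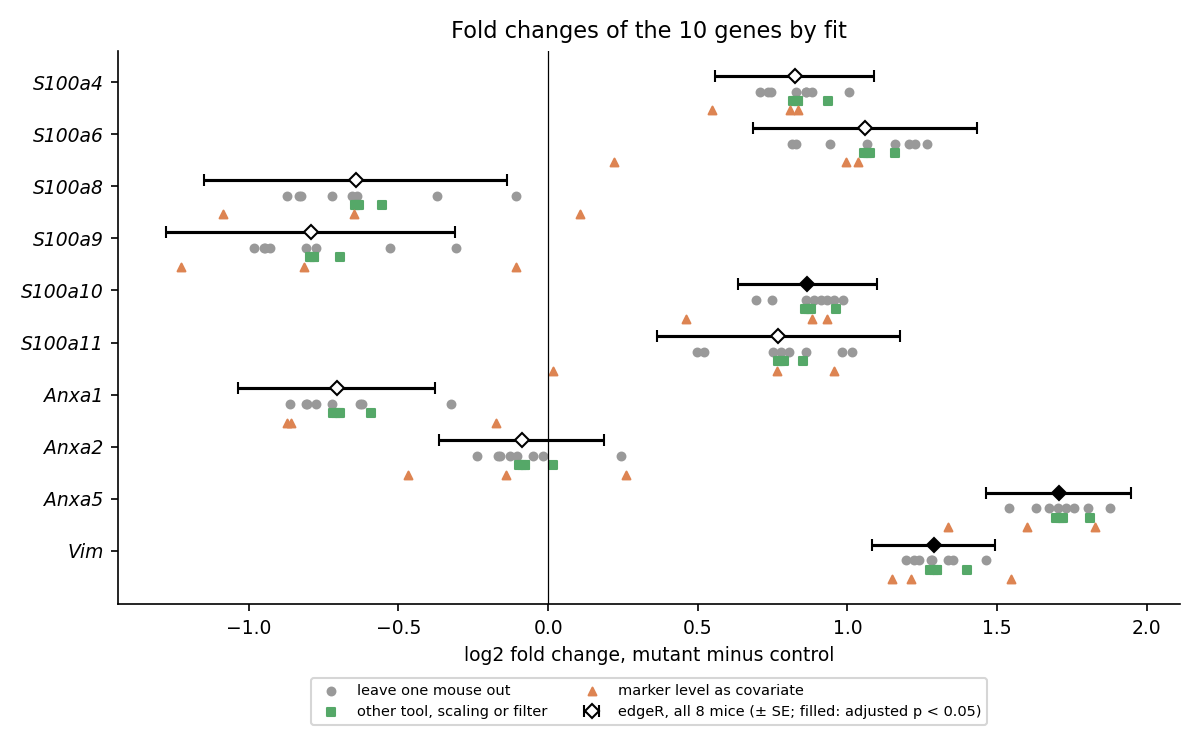
The horizontal axis is the log2 fold change, mutant minus control, and diamonds give the edgeR estimate with all 8 mice ± SE, filled where the adjusted p is below 0.05. Grey points leave out 1 mouse each, green squares use another tool, scaling or filter, and orange triangles add a marker level as a covariate. *Anxa5* and *Vim* stay between 1.15 and 1.88 in the fits shown, whereas with the choroid plexus covariate *S100a6* is at 0.22 and *S100a11* at 0.01.

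The other marker lists covered further brain and blood cell types. The oligodendrocyte sum, mostly *Mbp* (log2 fold change 0.00 ± 0.66), was 707 to 4498 CPM in controls and 1162 to 3791 CPM in mutants, and the neuron sum, led by *Snap25* (0.25 ± 0.65), was 34.8 to 305 and 81.9 to 248 CPM, with no gene of either list called by edgeR (0 at an unadjusted p under 0.05, and 0 and 0 by DESeq2). Both were highest in control 1 and mutant 1. With their joint level as a covariate *Anxa5* (1.60 ± 0.20) and *Vim* (1.21 ± 0.20) were called and *S100a10* was not (0.88 ± 0.25, adjusted p = 0.0578 by edgeR). The astrocyte sum was 1447 to 2467 CPM in controls and 371 to 1337 CPM in mutants. *Slc1a3* (-4.10 ± 0.55) was the most counted and the 1 called gene of 7. It was at 1080, 1320, 1760 and 1230 CPM in controls and at 170, 59.4, 25.8 and 59.9 CPM in mutants. Among controls it was highest in control 3, whereas *Gfap*, *Aqp4*, *Slc1a2*, *Gja1* and *Aldoc* were highest in control 1 and *Aldh1l1* in control 2. The sum therefore did not follow the other genes of the list. Of these 7 genes 4 had positive and 3 negative log2 fold changes, with a median of 0.10. Among lymphocyte markers (sums 68.7 to 95.9 and 108 to 166 CPM) 2 of 8 genes rose, *Cd3e* and *Nkg7*, while *Cd79b*, the most counted, was at 0.07 ± 0.23. Endothelial markers (25.4 to 46.7 and 15.7 to 32.1 CPM, *Ly6c1* at -0.03 ± 0.33) had no gene called by edgeR, 1 at an unadjusted p under 0.05 and 1 called by DESeq2, and mural and fibroblast markers (16.01 to 37.7 and 10.9 to 20.03 CPM, *Col1a2* at -0.27 ± 0.30) had 1, *Pdgfrb*, which was lower. The lymphocyte sums were higher in every mutant than in any control, as were *Anxa5*, *Vim* and *S100a10*. The astrocyte sums were lower in every mutant, although 4 of the 7 genes had positive log2 fold changes. The part of these cell types in the members' levels was not tested.

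Genes outside the list were ranked by the same profile distance, as a description over 8 libraries in 2 groups. Nearest to *Vim* was *Sorl1* (distance 0.146), at 26.8 ± 4.63 CPM in controls and 63.8 ± 6.67 CPM in mutants. Nearest to *Anxa5* was *Itsn1* (0.185), at 11.6 ± 3.92 and 41.4 ± 6.80 CPM. *S100a6* was nearest to *Ahnak* (0.187), and both *S100a8* (0.232) and *S100a9* (0.288) to *Wfdc21*. For *S100a4* it was *Syce2* (0.0651) and for *Anxa2* it was *Uba6* (0.186). The nearest gene to *S100a11* was *Gm7665* (0.0650), 1 of the pseudogenes with which it shares sequence. For *S100a10* and *Anxa1* the nearest genes, *Gm11918* (0.148) and *Gm48340* (0.174), were pseudogenes below 1 CPM in every library, where distances are shrunk by the pseudocount. Within the list, *Vim* and *Anxa5* were each other's nearest member (0.283), as were *S100a4* and *S100a10* (0.295), *S100a6* and *S100a11* (0.371), and *Anxa1* and *Anxa2* (0.402).

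All 6 S100 genes and *Anxa5* lie on chromosome 3. *S100a4*, *S100a6*, *S100a8* and *S100a9* follow each other in this order with 6836, 44796 and 22596 bases between them, and *S100a11* and *S100a10* lie 28792 bases apart, 2824766 bases beyond *S100a9*. Position and profile went together for *S100a8* and *S100a9*. They did not for *S100a6* and *S100a8*, neighbours in the list whose log2 fold changes were 1.06 ± 0.38 and -0.64 ± 0.51, a difference between genes that was not tested.

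Levels can be compared between genes only per length, and as CPM per kilobase of exon the calprotectin genes had the highest means in both groups. In controls *S100a9* was at 743 ± 461 and *S100a8* at 513 ± 340, and the next gene, *S100a11*, at 52.8 ± 23.3. *S100a11*, *Anxa5* (51.8 ± 16.8) and *S100a6* (35.6 ± 13.7) did not differ from the next of the 3 beyond the larger SD of each pair, and neither did *S100a9* from *S100a8*. The same held for the lowest 5, *S100a10* (21.04 ± 5.30), *Anxa2* (18.3 ± 7.87), *Anxa1* (15.7 ± 7.77), *S100a4* (14.3 ± 1.64) and *Vim* (14.2 ± 3.86). In mutants *S100a9* was at 429 ± 180 and *S100a8* at 329 ± 148, which did not differ beyond their spread, and *Anxa5* followed at 169 ± 19.0. *S100a8* lay above *Anxa5* in 3 mutants and below it in mutant 1. Next came *S100a11* (90.1 ± 36.6) and *S100a6* (74.2 ± 30.6), and then *S100a10* (38.4 ± 6.90) and *Vim* (34.6 ± 3.43), neither pair differing beyond its spread. *S100a4* (25.4 ± 7.29), *Anxa2* (17.2 ± 2.46) and *Anxa1* (9.62 ± 1.92) were lowest. *Vim*, last of the 10 in controls, was therefore seventh in mutants. With the longest annotated transcript as the length, *Vim* was ninth in controls and seventh in mutants, and *S100a8* and *S100a9* exchanged places in mutants. The lengths of *S100a4* and *S100a11* include sequence shared with other annotated genes, so their places are less certain.

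**Figure D4:**
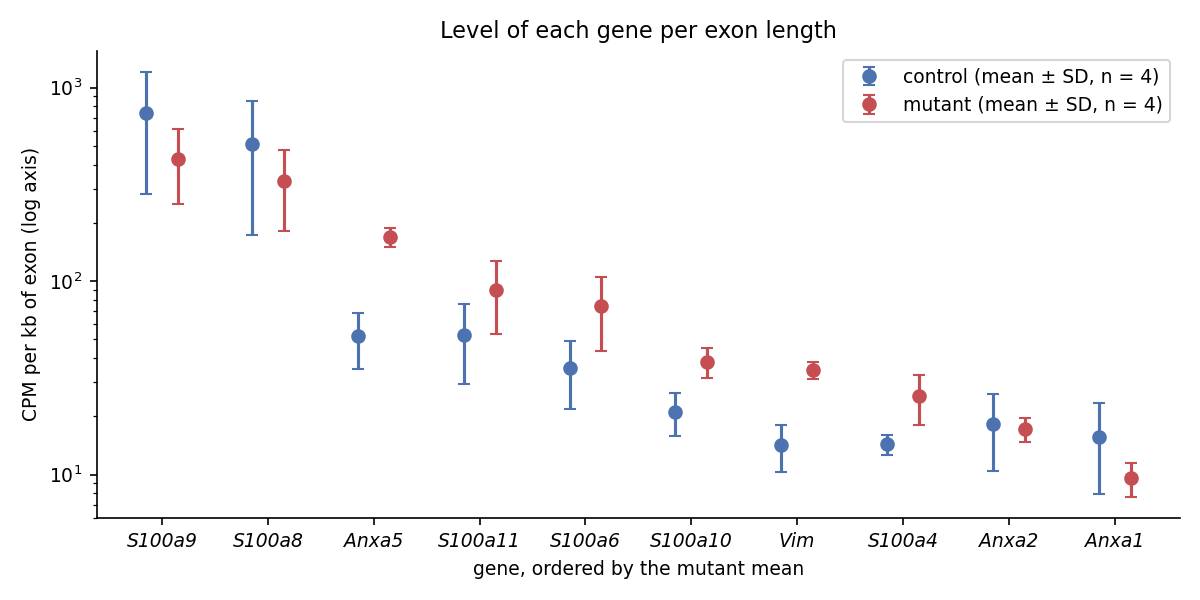
Points are means and bars SD (n = 4) of CPM per kilobase of exon on a log axis, for controls (blue) and mutants (red), with genes ordered by the mutant mean. *S100a9* and *S100a8* are highest in both groups, and the error bars of the groups are farthest apart for *Anxa5* and *Vim*.

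Of the other S100, annexin and intermediate filament genes, 2 annexins were called. Of 34 listed genes 21 passed the filter (*S100a14*, *S100z*, *Anxa10* and *Des* had 0 counts in all libraries), and 1 rose and 1 fell, a share near the 12.3% called among all tested genes, with a median log2 fold change of 0.38. *Anxa4*, an annexin of epithelial and secretory membranes, was at 31.4, 47.0, 38.0 and 28.2 CPM in controls and at 65.4, 83.0, 74.1 and 76.5 CPM in mutants (log2 fold change 1.05 ± 0.19, edgeR adjusted p = 0.0072). *Anxa3*, an annexin of phagocytes, was at 219, 199, 392 and 232 CPM in controls and at 71.4, 78.2, 100 and 109 CPM in mutants (-1.54 ± 0.25, adjusted p = 0.00445). Annexins therefore moved in opposite directions, with *Anxa5* and *Anxa4* higher and *Anxa3* lower, and *Anxa6* (0.01 ± 0.29) and *Anxa7* (-0.02 ± 0.15) near 0. Of 10 other S100 genes 4 were tested and none was called by edgeR, all with positive log2 fold changes from 0.38 to 1.18. At an unadjusted p under 0.05 there was 1, *S100a1*, at 1.18 ± 0.39 and adjusted p = 0.0847, and DESeq2 called 1. Of 15 other filament and lamin genes 11 were tested and none was called, with 1 at an unadjusted p under 0.05, 1 called by DESeq2 and a median of -0.31. *Gfap*, the filament gene of astrocytes that often accompanies *Vim*, was at 76.3, 31.0, 17.5 and 7.47 CPM in controls and at 84.6, 61.2, 30.1 and 31.6 CPM in mutants (0.65 ± 0.64, adjusted p = 0.561). In each group it was highest in control 1 and mutant 1, the mice with the highest oligodendrocyte and neuron sums.

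Among 26 genes of partners, receptors and kinases 22 were tested, of which 2 rose and 1 fell, a share near the 12.3% called among all tested genes, with a median log2 fold change of 0.27. *Cd44*, a hyaluronan receptor linked to the annexin A2 complex, was at 20.4, 28.4, 11.6 and 13.4 CPM in controls and at 166, 89.3, 180 and 122 CPM in mutants (2.92 ± 0.35, edgeR adjusted p = 9.12e-04). The other tested genes of its list, *Ahnak* (1.19 ± 0.36, edgeR adjusted p = 0.0606), *Plat* (0.52 ± 0.70) and *Plgrkt* (-0.13 ± 0.20), were not called by edgeR. With *Cd44* included, this list had 2 genes at an unadjusted p under 0.05 and 2 called by DESeq2. Every mutant exceeded every control in *Ahnak*. *Fpr1*, a formyl peptide receptor that binds annexin A1 peptides, was at 3.00, 3.77, 1.68 and 1.83 CPM in controls and at 15.9, 24.8, 24.0 and 51.8 CPM in mutants (3.50 ± 0.44, adjusted p = 0.00126). Its paralog *Fpr2* was at 0.90 ± 0.64 and was not called. *Tmem30a*, a subunit of the flippases that keep phosphatidylserine on the inner leaflet, was at 122, 124, 126 and 136 CPM in controls and at 76.0, 63.3, 76.0 and 76.6 CPM in mutants (-0.80 ± 0.13, adjusted p = 0.00421). The scramblase genes *Ano6* (-0.02 ± 0.30) and *Xkr8* (-0.36 ± 0.38) were not called. Nor was any of the 3 tested calprotectin receptor genes (*Tlr4* at -0.20 ± 0.30), any of the 4 partners of S100A4, S100A6 and S100A11 (*Myh9* at -0.45 ± 0.16, adjusted p = 0.0927), or any of the 5 vimentin crosslinkers and kinases (*Plec* at 0.60 ± 0.33). At an unadjusted p under 0.05 these 3 lists had 0, 2 and 1 genes, and DESeq2 called 0, 1 and 0 of them.

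**Figure D5:**
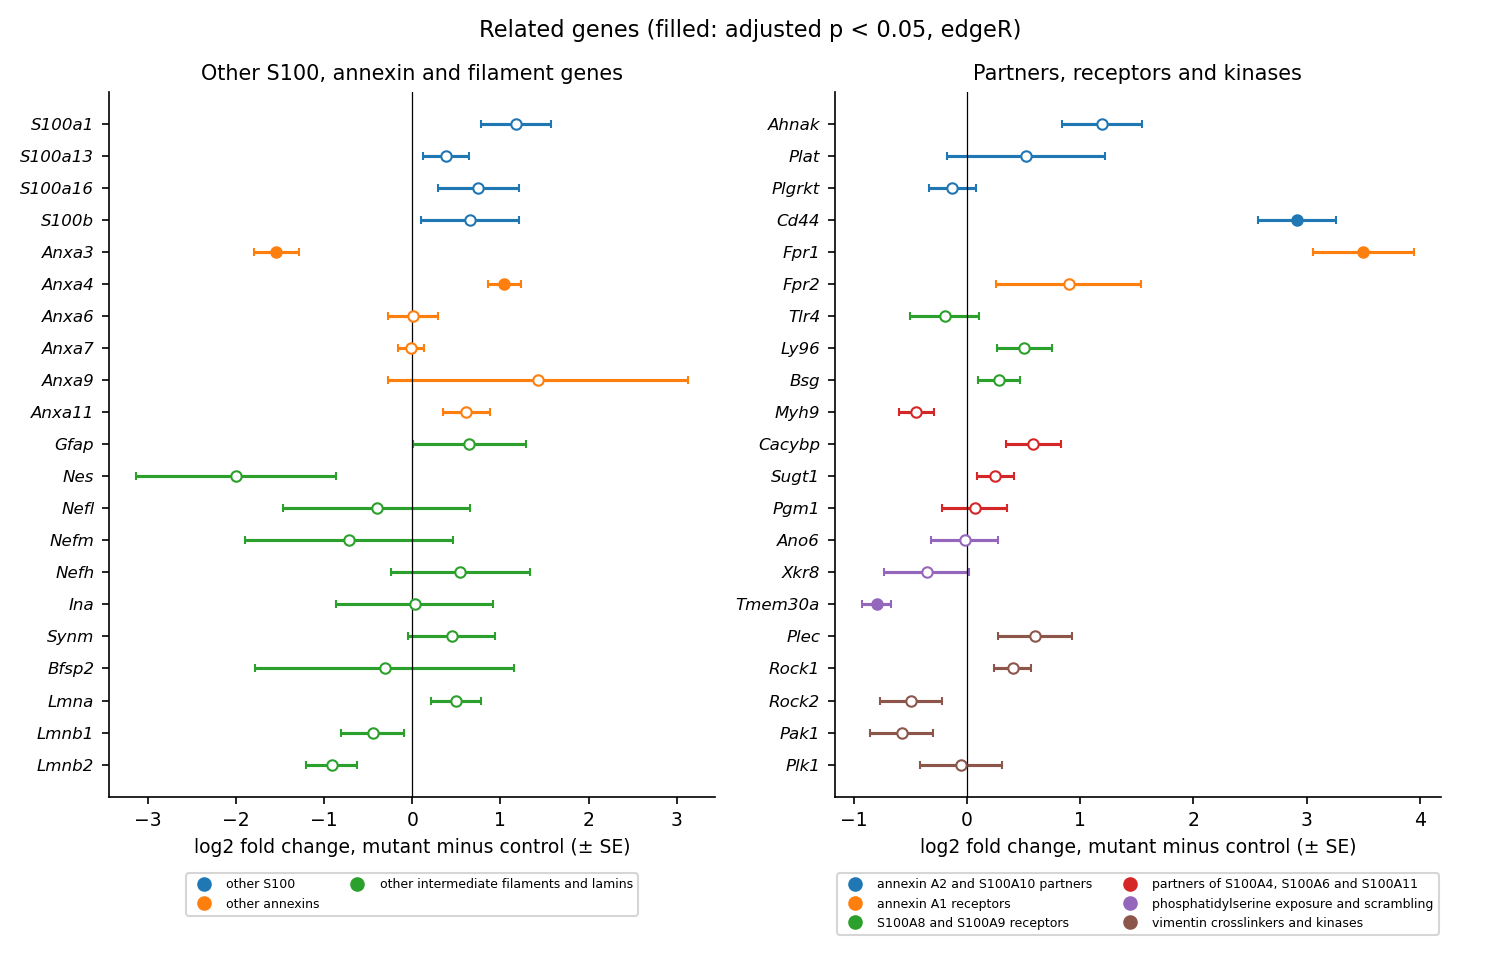
Points are edgeR log2 fold changes, mutant minus control, and bars are SE, for the tested genes of the related families (left) and of the partner lists (right, with 1 tested gene not drawn), coloured by list and filled where the adjusted p is below 0.05. The filled points are *Anxa3*, *Anxa4*, *Cd44*, *Fpr1* and *Tmem30a*.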

How the data were processed

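Whole-gene counts, 1 column per mouse, were used as the authors deposited them. Per the labels' processing notes the reads were assigned with featureCounts on mm10, and the counts were not normalized. The labels describe single-end, unstranded Nextera libraries, whereas the study's methods describe paired-end libraries for these mice, so the read layout is uncertain. A second deposited table with the authors' own fold changes was not used. Of 55573 gene identifiers 55480 matched GENCODE M21 on GRCm38, which gave symbols, positions and exon lengths.

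A gene was tested when 4 or more of the 8 libraries held 10 or more of its counts, with edgeR 4.0.16 (quasi-likelihood, TMM factors, 4 mice per group, no covariate, common biological coefficient of variation 0.542). DESeq2 1.42.0 was an alternative, on all genes with a count. Other scalings, filters, left-out mice and the replicate number as a block were also tried. Standard errors are the log2 fold change divided by the square root of F. Profiles used log2 CPM with a prior count of 2. The scripts were tested on simulated data. No pair of libraries agreed within sampling noise.

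The members, lists, motifs and tests were chosen with earlier results of these data known. Text names all members, the called gene with the largest rise and fall of each related list and *Gfap*, the most counted gene of each marker list, *Smad2*, *Smad3*, *Xist*, *Ddx3y* and the nearest profile of each member. Others were named after their values were seen. The values of 1 gene of the partner lists are not reported here, although it is counted in its list.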

Additional observations from a re-analysis of the deposited data

Results flagged for a closer look

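Of 40 groups of 4 mice examined (the members and other named genes, each in controls and mutants), 4 held a mouse whose gap to the nearest of the others, over the group's range, exceeded Dixon's 95% critical value for 4 values. Chance gives about 1 in 20. *S100a10* was at 15.9 CPM in control 3, against 28.0 to 29.1 CPM in the other controls. *Anxa3* was at 392 CPM in control 3, against 199 to 232 CPM in the other controls. *Tmem30a* was at 63.3 CPM in mutant 2, against 76.0 to 76.6 CPM in the other mutants. *Xist* was at 0.561 CPM in mutant 2, against 0.0276 to 0.0835 CPM in the other mutants.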

How the results depend on the processing

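The number of called genes was 2485 over all genes, 3 of the members, 2 of the related families and 3 of the partners. DESeq2 called 4738, 5, 4 and 5. With 1 mouse left out the counts were 1567 (without control 3) to 2499 over all genes, 2 to 4 for members, 2 to 3 for families and 3 to 4 for partners. Without control 2 it was 1572 over all genes. The choroid plexus covariate gave 704 over all genes and 0 members, and the neutrophil covariate 1325 over all genes. *S100a8* turned to 0.11 under the neutrophil covariate. *Anxa2* turned to 0.016 with library totals and 0.26 under the neutrophil covariate, and ranged from -0.24 to 0.24 (without control 2) with 1 mouse left out. Among refits of members 148 kept direction and side of the threshold, 14 lost the call, 4 gained it and 4 changed sign. Among refits of the other named genes 104 kept both and 8 lost the call, all of *Smad3*. As means over all 8 mice, levels per kilobase rose with the longest transcript as the length, by construction of the shorter length. They went to 95.8 from 54.9 for *S100a6*, 52.5 from 29.7 for *S100a10* and 39.5 from 24.4 for *Vim*. For *Anxa1* the level was 22.0 from 12.7 and for *Anxa2* 29.1 from 17.8. For *S100a8* it was 586 from 421 and for *S100a4* 23.3 from 19.85. *S100a9* and *Anxa5* changed less, and *S100a11* stayed the same. Counts of 250 or more per member and library left counting error small beside the spread between mice for most members. The margin was narrowest for *S100a4* in controls, with 250 to 349 counts and a coefficient of variation of 11.5%.

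The labels give no meaning to the replicate numbers. The correlations of the deviations of same-numbered mice were 0.166, 0.0183, 0.144 and 0.114 for numbers 1 to 4. The mice numbered 1, 3 and 4 each correlated best with their own number, a hint from the data and not the design, and those numbered 2 did not, so the numbers were not taken as pairs. Adding that number as a replicate block gave 2383 called genes over all genes, 3 members, 3 family genes and 3 partners. *S100a6* (1.06, adjusted p = 0.0310) was called and *S100a10* (0.88, adjusted p = 0.0888) was not, by edgeR.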
